A study of Mus musculus with 12 samples.

Results

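The IFIT, OAS and Mx genes encode antiviral effectors that cells make when interferon is sensed. The 10 genes described here are *Ifit1*, *Ifit2*, *Ifit3*, *Oas1a*, *Oas2*, *Oas3*, *Oasl1*, *Oasl2*, *Mx1* and *Mx2*, chosen by symbol from the 45563 symbols that occur in a single row of the expression tables, and 10 of 10 were found. RNA was sequenced from oligodendrocyte precursor cells (OPCs) purified from the cortices of C57BL/6 mouse pups at postnatal days 2 to 5 (3 to 5 in the study's methods, which name the WT mice C57BL/6J) with magnetic beads against PDGFRα and kept for 3 days in medium with PDGF-AA and FGF2. WT pups were compared with germline TNFR2-/- pups, which lack the receptor in every cell type and were obtained as a separate stock. Cells of both genotypes were stimulated (St) for 3 h with TNF, IFNγ and IL1β together, each at 25 ng/mL, or received PBS vehicle (non-stimulated, NS). The 12 libraries make up WT NS, WT St, TNFR2-/- NS and TNFR2-/- St, with 3 libraries each, and p-values measure only the spread among these libraries, as no source says that cultures came from separate litters. Libraries of WT cultures are numbered 2, 3 and 4 and those of TNFR2-/- cultures 2, 4 and 5. The TNFR2-/- cultures are distinct from WT cultures of the same number.

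Type I interferons signal through a receptor of IFNAR1 and IFNAR2 chains, and an activated complex that contains STAT2 and IRF9 binds the interferon-stimulated response element (ISRE). IFNγ signals through a separate receptor to genes with a gamma-activated site (GAS), and IRF1, made in response, can also bind ISRE sequences. IFIT proteins are tetratricopeptide-repeat proteins, and IFIT1 recognizes viral RNA whose cap lacks ribose methylation. OAS enzymes make 2'-5' oligoadenylates when they meet double-stranded RNA, and these trigger the breakdown of RNA. OASL1 and OASL2 carry ubiquitin-like domains. Mouse OASL1 lacks the enzyme activity and dampens the translation of *Irf7*, whereas mouse OASL2 is active. Mx proteins are dynamin-like GTPases. Most laboratory strains, C57BL/6 included, carry defective alleles of both mouse Mx genes.

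Library totals ranged from 26886878 to 30335265 read pairs. For 26635 of 26636 genes the FPKM values were whole multiples of 1 read pair (within 0.01), so that the read pairs behind them could be recovered. The number of bases by which a gene was divided was unrelated to its annotated length, for example 107 for *Ifit3* against 1745 annotated exon bases. FPKM was therefore compared within a gene, and levels of different genes only as RPKM recomputed from the read pairs, the annotated exon length and the library total. *Tnfrsf1b*, the targeted gene, was counted in 12 to 24 read pairs per WT NS library against 213 to 346 per library labeled TNFR2-/- NS, and after stimulation in 61 to 145 against 282 to 356. Its read pairs were thus more numerous under the TNFR2-/- label. Gene totals do not give the position of reads along the gene, so the labels could not be checked from them. The paper reports that AKT phosphorylation rose on cytokine exposure in WT but not in TNFR2-/- OPCs. Each genotype difference below is between libraries carrying these labels. The 8 OPC markers all had reads in every group, with a summed level of 4348 to 5441 CPM in NS and 3158 to 3951 CPM in St libraries. The 8 neuronal markers summed to 109 to 150 CPM in NS and 466 to 554 CPM in St libraries, and the part of these shifts in the stimulation changes below was not tested. Of the 12 microglial markers 9 or 10 had reads in a group, with a summed level of 9.94 to 13.1 CPM, and *Trem2* and *C1qc* were at 0 in both St groups. The 8 astrocyte markers summed to 1875 to 2239 CPM in WT libraries, to 2801 to 2996 in TNFR2-/- cultures 2 and 4, and to 4529 and 4496 in culture 5 without and with stimulation. The 8 mural and fibroblast markers were lowest in the same culture, at 109 and 76.4 CPM, against 213 to 874 CPM elsewhere. In bulk RNA, more expressing cells and more RNA per cell cannot be told apart.

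The genes lie on 3 chromosomes of the mouse genome (GRCm38, GENCODE M21). *Ifit2* (ENSMUSG00000045932, 34550694 to 34576419), *Ifit3* (ENSMUSG00000074896, 34583531 to 34588731) and *Ifit1* (ENSMUSG00000034459, 34640871 to 34650009) follow each other on the plus strand of chromosome 19. On chromosome 5, *Oasl2* (ENSMUSG00000029561, 114896936 to 114912234) and *Oasl1* (ENSMUSG00000041827, 114923240 to 114937915) lie on the plus strand, and *Oas2* (ENSMUSG00000032690, 120730333 to 120749853), *Oas3* (ENSMUSG00000032661, 120753098 to 120777661) and *Oas1a* (ENSMUSG00000052776, 120896256 to 120907521) on the minus strand. *Mx1* (ENSMUSG00000000386, 97447035 to 97462907, minus strand) and *Mx2* (ENSMUSG00000023341, 97535308 to 97560900, plus strand) are neighbors on chromosome 16, and the annotation classes *Mx2* as a polymorphic pseudogene. Of all stretches of 100 bases in their transcripts, *Ifit3* shared 31.7% with *Ifit3b* and *Oas1a* shared 40.9% with *Oas1g*. Reads from such stretches match both genes of a pair, and whether they were counted or dropped is not stated. The levels of *Ifit3* and *Oas1a* carry this limit. The others shared at most 3.3% with any gene. A gene on the opposite strand overlaps *Oasl1* (*Gm13822*) and *Oas2* (*Gm43068*), and whether the counting used strand is not stated.

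Promoter sequence (RefSeq, GRCm38.p6) was at hand for 7 of the 10 genes. It was searched for the ISRE core, taken as GAAANNGAAA or its complement TTTCNNTTTC, and for the GAS core TTCNNNGAA, in windows from 250 bases before to 50 bases after a start site. The ISRE core was present in 4 of the 7 genes, against 3.44% of all 32851 windows. *Ifit1* held it 104 and 85 bases before its start and *Ifit3* 156 and 122 bases before. Each of these genes carried the same pair of decamers, TTTCACTTTC followed by TTTCAGTTTC. *Oas1a* held overlapping copies 20 and 14 bases before its start, and *Oas3* a single copy 75 bases before. The GAS core was found in *Ifit2* (241 bases before the start) and *Oas1a* (98 bases before), against 8.3% of all windows. These letters were absent from the windows of *Oasl1* and *Oasl2*, and the ISRE core from both annotated windows of *Ifit2*. The 200 bases before the start are shown for the 4 genes with an ISRE core and for *Ifit2* and *Oasl2*, the genes of the smallest and of a large stimulation change among the abundant ones, 5' to 3' on the strand of the gene with the ISRE core in capitals.
Ifit1, chr19:34640689-34640888, plus strand: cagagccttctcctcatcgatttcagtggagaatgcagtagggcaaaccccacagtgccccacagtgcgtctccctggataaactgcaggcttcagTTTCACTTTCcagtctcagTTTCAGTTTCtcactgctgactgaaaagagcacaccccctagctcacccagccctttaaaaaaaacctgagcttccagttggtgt
Ifit3, chr19:34583329-34583528, plus strand: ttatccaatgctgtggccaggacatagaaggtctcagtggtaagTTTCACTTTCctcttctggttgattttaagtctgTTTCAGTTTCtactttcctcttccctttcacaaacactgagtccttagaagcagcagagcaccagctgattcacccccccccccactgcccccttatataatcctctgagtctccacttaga
Oas1a, chr5:120907526-120907725, minus strand: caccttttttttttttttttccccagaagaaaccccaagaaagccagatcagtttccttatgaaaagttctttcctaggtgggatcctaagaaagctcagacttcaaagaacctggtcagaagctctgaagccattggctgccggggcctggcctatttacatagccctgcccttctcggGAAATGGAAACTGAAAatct
Oas3, chr5:120777660-120777859, minus strand: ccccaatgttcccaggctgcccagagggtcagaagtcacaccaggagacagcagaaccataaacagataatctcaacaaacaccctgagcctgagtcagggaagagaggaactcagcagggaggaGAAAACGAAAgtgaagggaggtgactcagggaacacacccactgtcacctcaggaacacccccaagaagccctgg
Ifit2, chr19:34550494-34550693, plus strand: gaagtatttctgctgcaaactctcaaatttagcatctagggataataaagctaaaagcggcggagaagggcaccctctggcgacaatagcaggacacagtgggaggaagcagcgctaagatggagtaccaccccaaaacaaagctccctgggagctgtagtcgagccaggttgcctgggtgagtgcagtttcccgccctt
Oasl2, chr5:114896734-114896933, plus strand: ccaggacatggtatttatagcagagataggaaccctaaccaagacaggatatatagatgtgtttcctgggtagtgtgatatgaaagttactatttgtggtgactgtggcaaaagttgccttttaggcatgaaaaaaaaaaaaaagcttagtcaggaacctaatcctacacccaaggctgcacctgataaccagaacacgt

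In naïve WT cells the family was transcribed unevenly. By recomputed RPKM, *Ifit2* was highest in WT NS at 3.40 ± 0.73 (SD, n = 3), followed by *Ifit3* at 0.849 ± 0.206 and *Mx2* at 0.280 ± 0.106, and these did not overlap. *Ifit1* (0.109 ± 0.083) and *Oasl2* (0.0760 ± 0.0418) came next and overlapped each other. The remaining *Oas2*, *Oas1a*, *Oasl1*, *Mx1* and *Oas3* had 0 to 2 read pairs in each WT NS library, and their order could not be told. The order of the first 5 genes was the same in TNFR2-/- NS, with *Ifit2* at 4.75 ± 0.86 and *Ifit3* at 1.60 ± 0.94, and there *Mx2* and *Ifit1* overlapped. Stimulation changed the order. In WT St *Ifit3* led at 12.3 ± 0.96, ahead of *Ifit1* (7.96 ± 1.02), *Ifit2* (5.26 ± 1.11), *Oasl2* (2.39 ± 0.46) and *Mx2* (1.54 ± 0.22), and each of these neighbors was separated in every library. In TNFR2-/- St the same 5 led in the same order, with *Ifit3* at 27.5 ± 18.0 overlapping *Ifit1* at 15.5 ± 7.36. *Mx1*, *Oas1a*, *Oas2* and *Oasl1* stayed between 0.110 and 0.545 on average in both St groups and *Oas3* at 0.00313 and 0.0243.

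**Figure D1:**
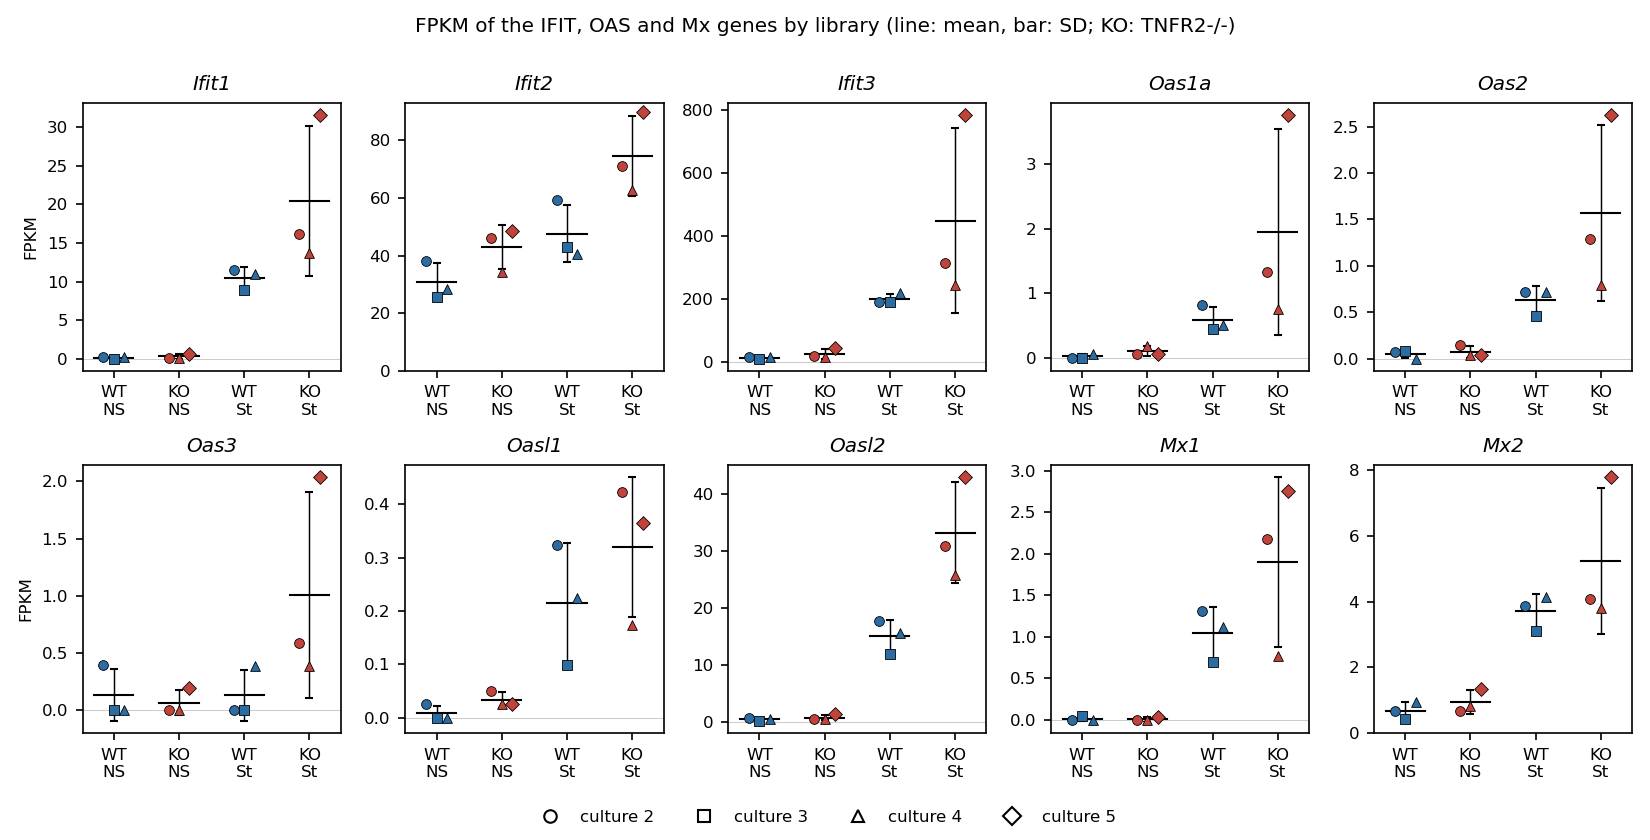
FPKM of each gene (y axes, a separate linear scale per gene) in the 12 libraries, with points for libraries, symbols for culture numbers, lines for means and bars for SD over 3 libraries; blue is WT and red is TNFR2-/- (KO). Every TNFR2-/- St point lies above every TNFR2-/- NS point for each of the 10 genes, and culture 5 is the highest TNFR2-/- St library for 9 of 10.

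The response to the cytokines was examined first in WT OPCs. Genes were tested with limma on log2(FPKM + 0.5) over the 12 libraries. A call required an adjusted p (Benjamini-Hochberg) no higher than 0.05, a change of 1.5-fold or more in either direction and a mean level no lower than 1 FPKM. Of 18081 genes tested, 4.58% were called upregulated in WT cells, and 4 of the 10 genes were among them, namely *Ifit1*, *Ifit3*, *Oasl2* and *Mx2*. The 10 genes passed the filter of a mean of 0.1 FPKM, but 5 of them had a mean under 1 FPKM and could not be called. As the divisors are unrelated to gene length, this minimum is not a cut on abundance across genes. For 3 of the 10, *Oas2*, *Oasl1* and *Mx1*, both NS groups averaged under 0.1 FPKM, so these passed the filter only through St libraries. Averaged over all NS libraries together, *Oas1a* and *Oas3* were under 0.1 FPKM as well, so they too passed only through St libraries. The stimulation p-values and calls of these 5 genes, here and below, carry that selection. Without the minimum level 6 of 10 passed in WT cells, with *Oas2* and *Mx1* added, against 5.38% of all genes upregulated. WT St lay above WT NS in every library for 9 of the 10 genes, against 13.7% of all genes, and *Oas3* was the exception. Their median log2 fold change was 1.31, beside -0.055 over all genes tested. The pseudocount shrinks the changes of genes near 0, and this median was 2.43 with a pseudocount of 0.1 and 3.57 by voom on the read pairs. In TNFR2-/- cells 5 of 10 were called, with *Ifit2* added, against 5.41% of all genes, and 10 of 10 without the minimum level, against 6.59%. The St libraries lay above the NS libraries for 10 of 10 genes (12.7% of all genes), and the median was 1.89 beside -0.11 over all genes, or 3.12 with a pseudocount of 0.1 and 3.86 by voom.

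*Ifit1* rose from near silence. Its FPKM in WT NS cultures 2, 3 and 4 were 0.199, 0.0185 and 0.215, and in WT St 11.5, 8.98 and 11.03. The corresponding read pairs were 12, 1 and 13 before and 697, 543 and 668 after stimulation. All St values thus lay far above all NS values, and the log2 fold change was 4.10 ± 0.31 (SE, adjusted p = 6.8e-06). The pseudocount shrinks changes from so low a level, and the summed read pairs, scaled by library totals, rose 70.7-fold (95% exact counting interval 48.1 to 108). In TNFR2-/- cultures 2, 4 and 5, FPKM went from 0.165, 0.148 and 0.688 to 16.1, 13.7 and 31.6 (log2 fold change 4.62 ± 0.31, adjusted p = 2.23e-06). Here the read pairs rose 60.7-fold (47.2 to 79.5), and 95.3-fold (60.9 to 159) without culture 5. These ratios lay below and above that of WT cells, but both intervals overlapped the WT interval, so no order of the genotypes was resolved. These intervals, as all of this kind below, cover counting error only.

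*Ifit3* was already present without stimulation. WT NS values were 14.9, 10.1 and 16.5 FPKM and WT St values 192, 190.2 and 218. The St values did not overlap the NS values, with a log2 fold change of 3.83 ± 0.45 (adjusted p = 0.000168) and a 14.3-fold rise in read pairs (11.97 to 17.2). TNFR2-/- NS values were 19.9, 14.8 and 43.4 FPKM and TNFR2-/- St values 316, 245 and 784. The change in TNFR2-/- cells was 4.04 ± 0.45 on the log2 scale (adjusted p = 8.67e-05), or 16.98-fold in read pairs (15.0 to 19.4). Culture 5 exceeded the next TNFR2-/- culture 2.19-fold before and 2.48-fold after stimulation.

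*Ifit2* differed from its neighbors in both respects. WT NS cultures had 38.2, 25.6 and 28.4 FPKM and WT St cultures 59.1, 43.1 and 40.7, which did not overlap. The rise was 1.54-fold in read pairs (1.43 to 1.66), and its log2 fold change of 0.62 ± 0.20 was not called (adjusted p = 0.0644). When each St library was compared with the NS library of its own culture (a block for culture within genotype), the same change had an adjusted p of 0.000759. It also passed without WT NS replicate 2 (log2 fold change 0.79, adjusted p = 0.0377). TNFR2-/- NS cultures had 46.2, 34.2 and 48.6 FPKM and TNFR2-/- St cultures 70.9, 62.8 and 89.7. This rise, 0.79 ± 0.20 on the log2 scale and 1.73-fold in read pairs (1.62 to 1.83), was called (adjusted p = 0.017). The call was lost without TNFR2-/- NS replicate 4 (adjusted p = 0.0601), without TNFR2-/- St replicate 5 (0.0589) and without culture 5 in both conditions (0.058). In the WT St libraries *Ifit2* thus went from the most to the third most abundant of the family with a change of 0.62, against 4.10 and 3.83 for *Ifit1* and *Ifit3*.

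*Oasl2* was the most abundant of the OAS genes in each group. *Oasl2* went from 0.692, 0.184 and 0.562 FPKM in WT NS to 17.7, 11.9 and 15.6 in WT St, that is from 21, 5 and 17 read pairs to 537, 362 and 473. Every St library exceeded every NS library by a wide margin, with a log2 fold change of 4.01 ± 0.29 (adjusted p = 4.8e-06) and a 30.7-fold rise in read pairs (22.7 to 42.7). In TNFR2-/- cells it went from 0.460, 0.523 and 1.31 to 31.0, 25.8 and 43.0 FPKM (4.77 ± 0.29, adjusted p = 1.04e-06), or 43.3-fold in read pairs (34.2 to 55.7). Its neighbor *Oasl1* was found in 1 read pair over the WT NS libraries and in 13, 4 and 9 read pairs in WT St. Its ratio of 25.0 had a counting interval of 4.11 to 1027, and its fitted change of 0.48 ± 0.14 passed the p threshold (adjusted p = 0.0416) but not the fold threshold. That p was lost in 11 of 24 alternatives, at 0.0522 to 0.148, among them the omission of any WT library other than WT St replicate 3 and of any TNFR2-/- NS library. In TNFR2-/- cells *Oasl1* had 2, 1 and 1 read pairs before and 17, 7 and 14 after stimulation (0.61 ± 0.14, adjusted p = 0.0096), a ratio of 9.69 (3.49 to 37.4), and the adjusted p was 0.0685 without culture 5 in both conditions.

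The other synthetase genes were scarce. *Oas1a* had 0, 0 and 1 read pairs in WT NS and 13, 7 and 8 in WT St, with a ratio of 27.0 (4.46 to 1103). This separated the groups, although the fitted change of 1.05 ± 0.35 did not pass (adjusted p = 0.0711). That p fell to 0.00405 when culture 5 of TNFR2-/- cells was left out of the shared estimate of spread, to 0.00274 without TNFR2-/- St replicate 5 alone and to 0.0289 without TNFR2-/- St replicate 4. *Oas1a* in TNFR2-/- cells went from 1, 3 and 1 to 21, 12 and 57 read pairs (1.83 ± 0.35, adjusted p = 0.00346). *Oas2* went from 2, 2 and 0 read pairs in WT NS to 19, 12 and 19 in WT St, a ratio of 12.04 (4.42 to 45.9) and a fitted change of 1.03 ± 0.26 (adjusted p = 0.0225). Leaving out any WT library other than WT St replicate 3 took that p above 0.05, to between 0.0539 and 0.0787. In TNFR2-/- cells *Oas2* went from 4, 1 and 1 to 34, 21 and 66 read pairs (1.75 ± 0.26, adjusted p = 0.000738). *Oas3* had 2 read pairs in all over the WT NS libraries and 2 over the WT St libraries, where no change was detectable at this depth (-0.0005 ± 0.40, adjusted p = 1, direction not stable). TNFR2-/- libraries had 1 read pair in all before and 3, 2 and 10 after stimulation (1.27 ± 0.40, adjusted p = 0.0375), and the p was 0.102 without TNFR2-/- St replicate 5 and 0.0999 and 0.0956 without TNFR2-/- NS replicates 2 and 4.

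Both Mx genes rose from different baselines. *Mx1* was found in 1 read pair over the WT NS libraries, and in 34, 18 and 29 in WT St. Its ratio of 78.0 had a counting interval of 13.6 to 3119, and its fitted change was 1.57 ± 0.29 (adjusted p = 0.00397). TNFR2-/- libraries had 1 read pair in all before and 56, 20 and 68 after stimulation (2.12 ± 0.29, adjusted p = 0.000407), a ratio of 147 (25.9 to 5838). *Mx2* was already measurable in naïve cells, at 0.667, 0.422 and 0.936 FPKM in WT NS, and reached 3.86, 3.11 and 4.15 in WT St. Its change of 1.86 ± 0.27 (adjusted p = 0.000801) corresponded to a 5.42-fold rise in read pairs (4.32 to 6.87). In TNFR2-/- cells it went from 0.666, 0.816 and 1.34 to 4.07, 3.82 and 7.80 FPKM (1.95 ± 0.27, adjusted p = 0.000432), or 5.50-fold (4.55 to 6.70).

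**Figure D2:**
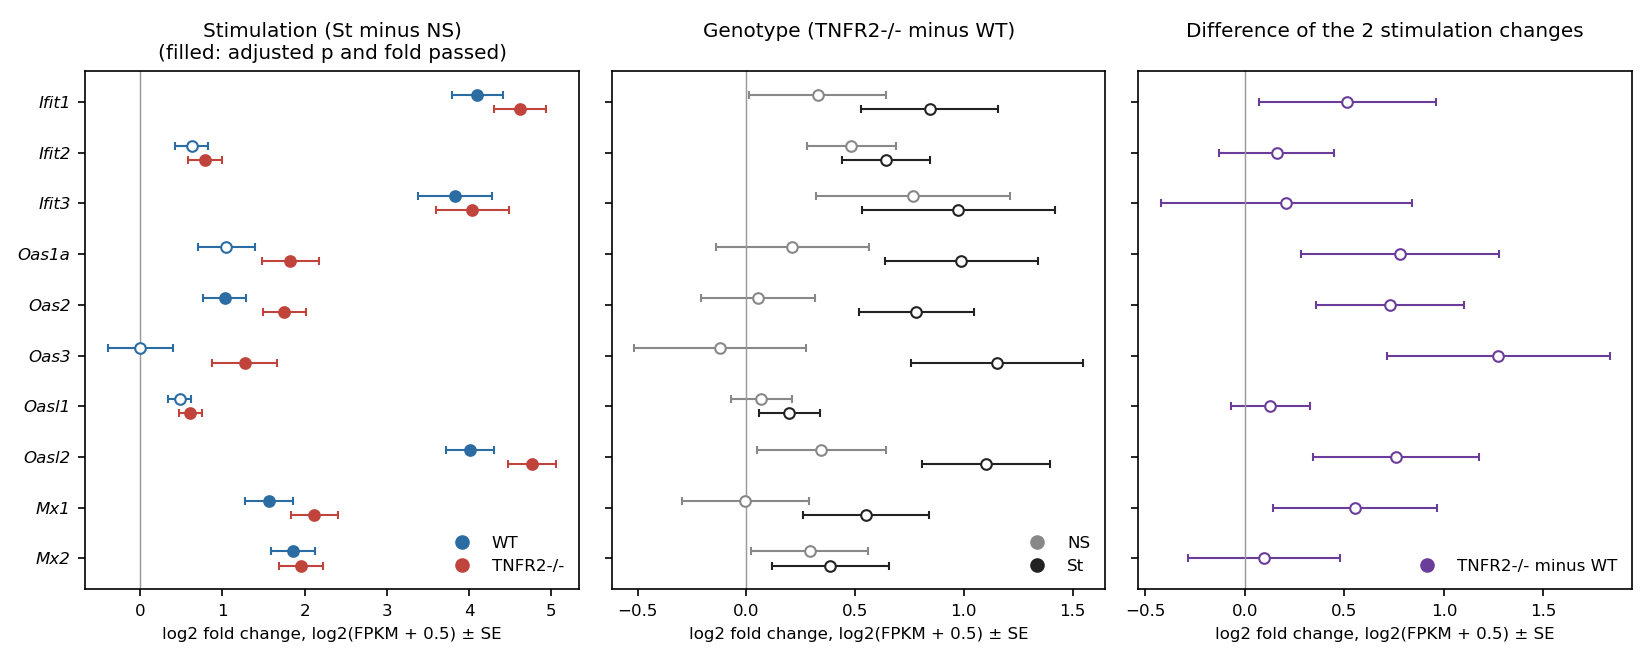
Log2 fold changes with SE on the log2(FPKM + 0.5) scale (x axes) for the 10 genes, for stimulation in WT (blue) and TNFR2-/- (red), for genotype in NS (gray) and St (black) libraries, and for the difference of the stimulation changes (purple); filled points passed the adjusted p and fold thresholds. On this scale *Ifit1*, *Ifit3* and *Oasl2* have the largest stimulation changes, from 3.83 to 4.77. The pseudocount shrinks changes of genes near 0, so the order differs in read pairs. In TNFR2-/- cells read pairs of *Mx1* rose 147-fold (25.9 to 5838) and those of *Ifit3* 16.98-fold (15.0 to 19.4). No point passed in the genotype and difference panels.

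The libraries labeled TNFR2-/- were compared with WT in naïve cells next. None of the 10 was called between the libraries labeled TNFR2-/- NS and WT NS, where 2.9% of all genes were called. At an unadjusted threshold of 0.05 limma called 1 of the 10, *Ifit2*, against 30.2% of all genes. *Ifit2* was 0.48 ± 0.20 higher (adjusted p = 0.142), *Ifit3* 0.77 ± 0.45 higher (0.279) and *Ifit1* 0.33 ± 0.31 higher (0.529). The NS libraries of both genotypes overlapped for 10 of 10 genes, whereas they did not overlap for 34.2% of all genes. Without culture 5 the ratio of read pairs between TNFR2-/- NS and WT NS was 1.05 for *Ifit1* (0.550 to 1.98), against 2.25 with it (1.40 to 3.71), and 1.24 for *Ifit3* (0.954 to 1.61), against 1.86 (1.503 to 2.32). Culture 5 was the highest TNFR2-/- NS library for 7 of 10 genes, and for 41.5% of all genes.

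After stimulation the 10 genes were all higher on average in the libraries labeled TNFR2-/- St than in WT St, by 0.20 to 1.15 on the log2 scale, with a median of 0.81 beside -0.0034 over all genes. None was called, where 1.8% of all genes were, and at an unadjusted threshold of 0.05 limma called 6 of the 10, against 26.7% of all genes. *Oasl2* came closest. Its WT St values of 17.7, 11.9 and 15.6 FPKM lay below TNFR2-/- St values of 31.0, 25.8 and 43.0, a difference of 1.10 ± 0.29 (adjusted p = 0.0549) and a ratio of read pairs of 2.20 (2.06 to 2.34). The call was made without TNFR2-/- NS replicate 5, a library outside this comparison that enters the shared spread (adjusted p = 0.0351), and the range over all alternatives was 0.0143 to 0.182. *Ifit2* differed by 0.64 ± 0.20 (adjusted p = 0.0828), *Ifit1* by 0.84 ± 0.31 (0.125) and *Ifit3* by 0.98 ± 0.45 (0.192). Groups were separated without overlap for 5 of the 10 genes, namely *Ifit1*, *Ifit2*, *Ifit3*, *Oas2* and *Oasl2*, against 15.4% of all genes in which TNFR2-/- St lay wholly above WT St. *Mx2* differed least among the abundant genes (0.39 ± 0.27, adjusted p = 0.389), with 4.07, 3.82 and 7.80 FPKM against 3.86, 3.11 and 4.15. *Oas1a*, *Oas3*, *Oasl1* and *Mx1* overlapped as well, and their differences ranged from 0.20 to 1.15 with adjusted p from 0.101 to 0.402.

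These differences were smaller without culture 5. It was the highest TNFR2-/- St library for 9 of 10 genes, against 42.3% of all genes, and for *Ifit1* and *Ifit3* it exceeded the next culture by 1.96-fold and 2.48-fold. Without it the ratio of read pairs between TNFR2-/- St and WT St was 1.42 for *Ifit1* (1.33 to 1.51), 1.40 for *Ifit2* (1.31 to 1.498), 1.40 for *Ifit3* (1.31 to 1.49) and 1.88 for *Oasl2* (1.75 to 2.02). With it these ratios were 1.93, 1.56, 2.21 and 2.20. For *Mx2* the ratio was 1.40 with culture 5 and 1.06 without it (0.926 to 1.22). Adjusted p without culture 5 in both conditions were 0.0855 for *Oasl2*, 0.137 for *Ifit1*, 0.207 for *Ifit2* and 0.224 for *Ifit3*. The calls for *Oas1a*, *Oas2* and *Mx1* were not made with all libraries, and without TNFR2-/- St replicate 4, the lowest of its group for these 3 genes, their adjusted p were 0.0394, 0.036 and 0.0261. Culture 5 also had the highest summed astrocyte markers (4496 CPM in St, against 2852 and 2920 in cultures 2 and 4), and the lowest mural and fibroblast markers (76.4 CPM). Among TNFR2-/- St libraries it was highest in mature oligodendrocyte markers (1135 CPM, against 578 and 821) and OPC markers (3702, against 3158 and 3465). Neuronal and endothelial markers were highest in it too, and microglial markers lowest. The part of these markers in the values of culture 5 was not tested.

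Whether the response itself differed between genotypes was tested as the difference of the stimulation changes. None of the 10 genes was called, where 1 gene of 18081 (0.00553%) was. At an unadjusted threshold of 0.05 limma called 1 of the 10, *Oas3*, against 7.95% of all genes. *Oas3* had passed the filter only through St libraries, and this p carries that selection. Differences on the log2(FPKM + 0.5) scale were positive for 10 of 10 genes, from 0.10 for *Mx2* to 1.27 for *Oas3*, with adjusted p from 0.617 to 0.982 and an all-gene median of -0.049, but by voom on the read pairs they were -0.39 for *Ifit1*, -0.64 for *Oasl1* and -0.048 for *Mx2*. Within a genotype the NS and St libraries of 1 number deviated together and were taken as 1 culture. With a block for culture within genotype, limma gave lower adjusted p for these differences. They ranged from 0.1002 for *Oasl2* and 0.109 for *Ifit1* to 0.768 for *Mx2*, and none was called. The change on the log2(FPKM + 0.5) scale was also computed per culture. On this scale *Ifit1* changed by 4.10, 4.19 and 4.01 in WT cultures 2, 3 and 4 and by 4.64, 4.45 and 4.76 in TNFR2-/- cultures 2, 4 and 5. *Oasl2* changed by 3.93, 4.18 and 3.92 against 5.03, 4.68 and 4.59. For these 2 genes the genotypes did not overlap (exact two-sided permutation p = 0.1, the smallest that 3 against 3 allows), and for the other 8 they did. As ratios of read pairs, which need no pseudocount, *Ifit1* rose 58.0-, 486- and 51.2-fold in WT cultures and 97.7-, 92.7- and 45.9-fold in TNFR2-/- cultures, and *Oasl2* 25.5-, 64.8- and 27.7-fold against 67.2-, 49.3- and 32.9-fold. On this scale both genes overlapped between genotypes. The 486-fold value of *Ifit1* rested on 1 NS read pair (counting interval 86.9 to 19242). TNFR2-/- culture 5 had the lowest ratio for *Ifit1* (33.8 to 63.9). It lay within counting error of WT cultures 2 (33.0 to 113) and 4 (29.7 to 96.6). For *Oasl2* the overlap rested on WT culture 3, with 5 NS read pairs.

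**Figure D3:**
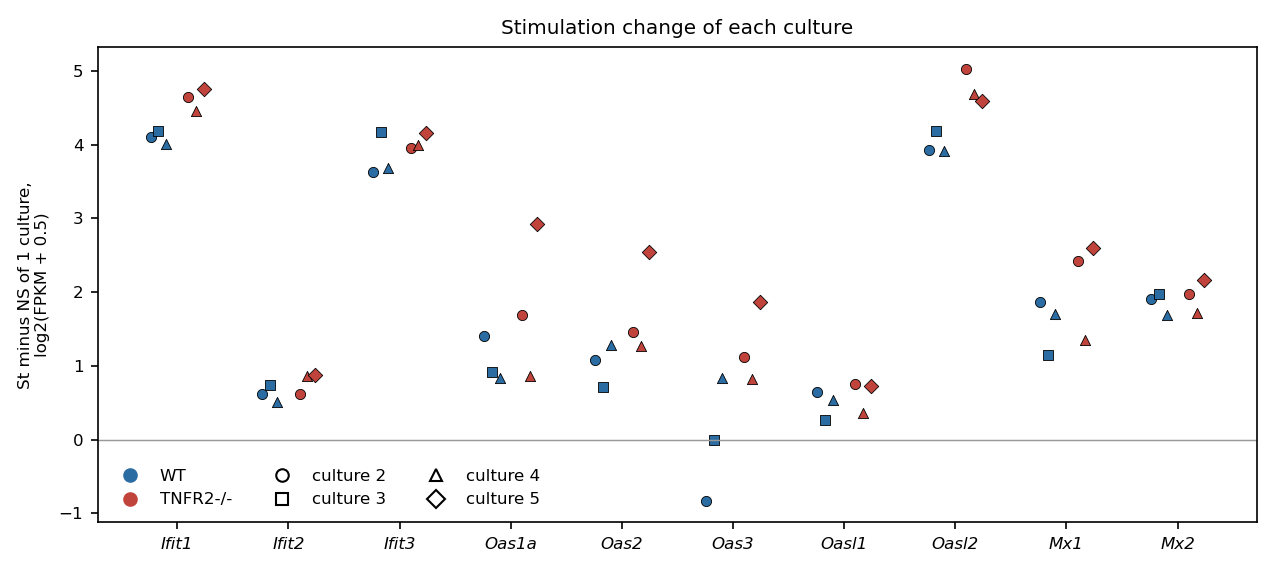
Change of each culture on stimulation (y axis, St minus NS on the log2(FPKM + 0.5) scale) for the 10 genes, with WT cultures in blue and TNFR2-/- cultures in red; symbols give culture numbers, and WT and TNFR2-/- cultures of the same number are distinct. *Ifit1* and *Oasl2* alone have all TNFR2-/- changes above all WT changes, while *Oas3* scatters around 0 in WT cultures.

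The genes that act before and beside these effectors were described from lists chosen by function, with earlier results of these data known. Over all genes tested, 4.58% were called upregulated in WT and 5.41% in TNFR2-/- cells. Of 7 transcription factors described here, 6 were called upregulated in WT and in TNFR2-/- cells. *Irf1*, which IFNγ induces directly, rose by 7.28 and 6.69 in WT and TNFR2-/- cells on the log2 scale, and *Irf8* by 8.15 and 7.83. Members of the ISRE-binding complex rose as well, *Stat2* by 3.63 and 3.51 and *Irf9* by 2.98 and 2.72. *Irf7*, which amplifies type I interferon production, rose by 2.39 and 3.39 and *Irf5* by 2.24 and 2.74. Of 8 receptor and kinase genes tested, 4 were called upregulated in each genotype, namely *Ifnar2* (1.40 in WT and 1.11 in TNFR2-/- cells), *Ifngr2* (1.18 and 1.08), *Jak1* (1.21 and 1.13) and *Jak2* (1.38 and 1.67). Of 7 negative regulators 5 were called in each, the signaling inhibitors *Socs1* (5.69 and 6.26) and *Socs3* (4.32 and 4.34), the repressor *Irf2* (1.79 and 1.82), the ISG15 protease *Usp18* (1.76 and 2.32) and the phosphatase *Ptpn2* (0.73 and 1.01).

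Among genes that act on the products of the OAS enzymes, *Akap7*, whose protein has a phosphodiesterase domain that can cleave 2'-5' oligoadenylates, was called downregulated, with log2 fold changes of -1.27 and -1.04. *Pde12*, which degrades the same oligoadenylates, changed by 0.019 and 0.16 and was not called. Of 22 other antiviral effectors tested 18 were called upregulated in WT and 19 in TNFR2-/- cells, against 4.58% and 5.41% of all genes. Their medians were 1.77 and 2.08, beside -0.055 and -0.11 over all genes tested. *Parp14* (7.37 and 7.03), *Rtp4* (5.14 and 5.14) and *Xaf1* (5.07 and 5.13) had the largest changes in both genotypes, followed by the RNA sensor gene *Ddx58* in WT cells (2.77, against 2.78 in TNFR2-/- cells) and *Ifi44* in TNFR2-/- cells (2.91, against 2.24 in WT cells). The interferon-inducible GTPases, relatives of Mx that respond strongly to IFNγ, had 15 of 15 tested genes called in each genotype, with medians of 8.92 and 7.26. The 4 largest changes of each genotype were those of *Gm4841* (11.66 and 10.61), *Ifi47* (11.15 and 10.62), *Tgtp2* (11.02 and 9.86), *Tgtp1* (10.40 and 8.77) and *Iigp1* (8.92 and 9.002), of which *Tgtp1* and *Tgtp2* are near-identical copies.

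**Figure D4:**
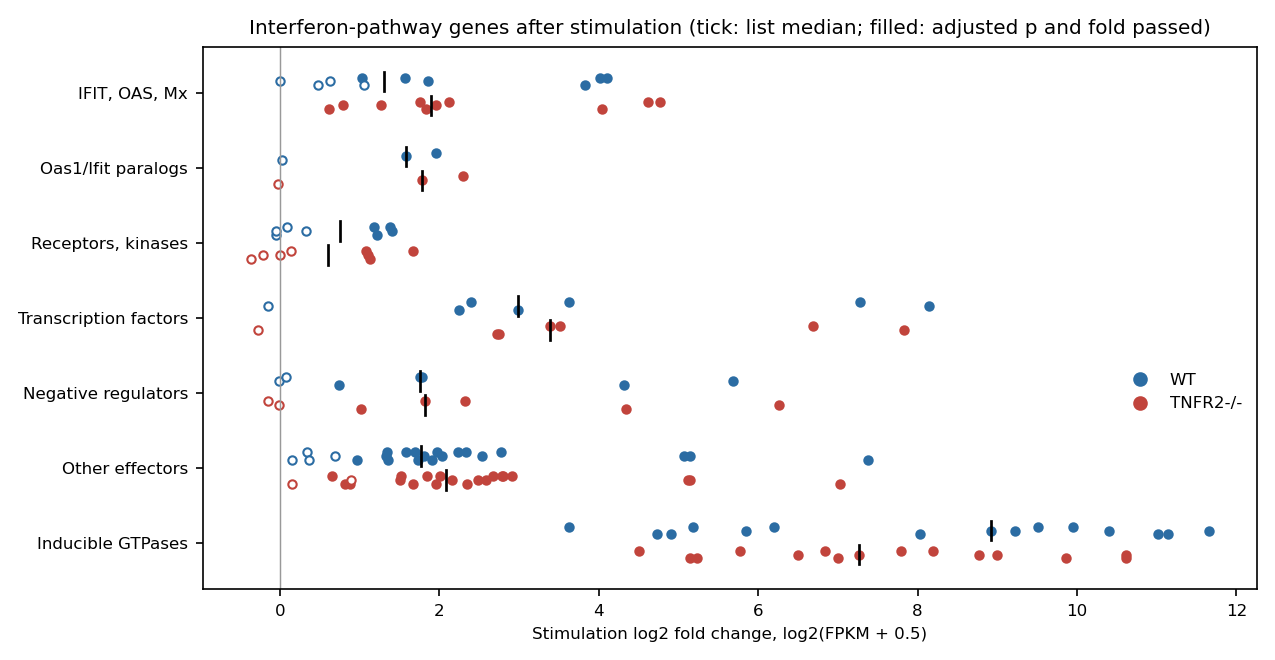
Stimulation log2 fold changes on the log2(FPKM + 0.5) scale (x axis) of the tested genes described here in 7 lists (rows), in WT (blue) and TNFR2-/- cells (red); ticks mark list medians and filled points passed the adjusted p and fold thresholds with no minimum level. The inducible GTPases lie at 3.63 to 11.66 in WT cells with a median of 8.92. On this scale the highest of the 10 IFIT, OAS and Mx genes in WT cells is *Ifit1* at 4.10.

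Interferon genes themselves were nearly silent. Of 20 ligand genes in the tables none reached the filter for testing, and *Ifnb1* had 0 read pairs in all NS libraries, 21 over the WT St and 31 over the TNFR2-/- St libraries. Against a floor of 3 read pairs over a group this was at least 6.74-fold and at least 10.5-fold higher after stimulation. TNFR2-/- St and WT St did not differ beyond counting error (ratio 1.497, 0.833 to 2.74). No other ligand exceeded 2 read pairs in a library. Of the paralogs, 3 were tested. *Ifit3b*, which shares sequence with *Ifit3*, was called upregulated in both genotypes (1.96 ± 0.36 in WT, adjusted p = 0.00374, and 2.29 ± 0.36 in TNFR2-/- cells, 0.00103). Its highest library was also TNFR2-/- St culture 5, with 7.11 FPKM against 2.95 and 1.92 in cultures 2 and 4. *Oas1b*, which C57BL/6 mice carry in a truncated form, passed only without the minimum level (1.59 and 1.78). Its recomputed RPKM in WT St was 1.57 to 1.87, beside 1.29 to 1.72 for *Mx2*, which was called. The minimum in FPKM thus did not mark a lower abundance here. *Oas1c* changed by 0.026 and -0.027.

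Between genotypes, 9 of the 65 list genes described here were called in NS (2.9% of all genes) and 7 in St libraries (1.8% of all genes). In NS these were led by *Gm4841* (2.34), the exonuclease gene *Isg20* (-2.27), *Tgtp1* (2.05), *Irgm2* (1.86) and *Igtp* (1.69), and *Isg20* was the only one lower in the libraries labeled TNFR2-/-. In St they were *Gbp2* (-1.19), *Gbp7* (1.04), *Gbp10* (0.91), the double-stranded RNA-activated kinase gene *Eif2ak2* (0.89) and *Irf7* (0.87, adjusted p = 0.0458), followed by *Gbp3* (0.82) and *Ifi44* (0.80). *Stat2* and *Irf9* differed by -0.080 and 0.011 in St libraries, with adjusted p of 0.685 and 0.968 in limma.

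The pattern of the 10 genes over the 12 libraries, taken as their mean log2(FPKM + 0.5) relative to WT NS, was 0.24 in TNFR2-/- NS, 1.85 in WT St and 2.62 in TNFR2-/- St. *Usp18* was the most alike of all other genes, with a root mean square difference of 0.15 over 12 libraries and mean FPKM of 0.236, 0.342, 2.01 and 3.804 over the NS groups of WT and TNFR2-/- cells and then their St groups. *Ifi35* (0.17), *Cmpk2* (0.19), the MHC class II activator gene *Ciita* (0.19) and the complement protease gene *C1ra* (0.20) followed. This likeness includes the size of the changes, which the pseudocount shrinks for genes near 0, and the ranking was not tested on other scales.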

How the data were processed

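RNA of 12 OPC libraries was sequenced by the authors. Reads were trimmed with Trim Galore, aligned to GRCm38 with Ensembl annotation and counted per gene with STAR, and EdgeR was used for the authors' own tests. The values deposited by the authors are FPKM per gene symbol, in a table each for NS and St. The divisor behind each FPKM is unrelated to annotated gene length. Of 45792 entries, 229 that share a symbol were left out. Read pairs were recovered from the whole multiples in the FPKM (26635 of 26636 genes, within 0.01 of a whole number), and NS and St tables were joined by symbol.

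Here limma 3.58.1 (R 4.3.3) fitted a mean per group to log2(FPKM + 0.5), with empirical Bayes moderation and a mean trend, for the 18081 genes averaging 0.1 FPKM or more, with Benjamini-Hochberg adjustment over all of them. Calls followed the thresholds of the study's methods, with the minimum of log2 CPM replaced by a mean of 1 FPKM. Ratios of read pairs carry exact 95% intervals for counting error. Sequences and lists were handled in Python 3.11.15. The procedure was tested on simulated data. The genes and lists were chosen with earlier results of these data known. All 10 genes are named in each comparison. Of a list with up to 10 tested genes every called gene is named, of longer lists the 4 of largest change (in genotype comparisons up to 5 called genes over all lists), and the 5 genes of most similar pattern. In the St genotype comparison *Gbp3* and *Ifi44*, and elsewhere the uncalled *Pde12*, *Oas1b*, *Oas1c*, *Stat2* and *Irf9* values were added after they were seen. Some genes of the lists are not reported here. Libraries are called replicates by their labels, and no source says whether cultures came from separate litters.

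Whether numbers pair libraries was examined in 13554 genes. In each genotype, NS and St libraries of the same number correlated at 0.34 to 0.65 after removal of group means (6 pairs), and those of other numbers at -0.45 to 0.09 (12 pairs). Across genotypes the 4 same-numbered pairs correlated at -0.06 to 0.20. The numbers were therefore taken to pair NS and St libraries within a genotype. The blocked value is given where it changed a call. For the difference of the stimulation changes the range of blocked adjusted p is given. Labels name an Illumina protocol and the methods a BGISeq-500 platform. Alternatives were other pseudocounts, filters, scalings, weights, blocks, voom on recovered read pairs and each library left out.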

Additional observations from a re-analysis of the deposited data

How the results depend on the processing

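Over the alternatives the 4 calls in WT stimulation ranged from 4 to 5 with the minimum level, and were 6 without it and 8 by voom without it. The 5 calls in TNFR2-/- stimulation ranged from 4 to 5, and were 10 without the minimum level by either tool. In NS genotype and in the difference of the stimulation changes the count was 0 in each alternative. In St genotype the count of 0 became 1 with a pseudocount of 1, a filter at a mean of 1 FPKM, a replicate block by number, and voom with or without the minimum level, and 2 with library weights. Leaving out each library gave 0 to 1. *Oasl2* was the gene called in each of these, joined by *Ifit2* with library weights. The settings without a minimum level, a minimum of 2 CPM and the omission of culture 5 in both conditions were chosen after seeing the data.

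Directions of uncalled changes, not all of them near 0, turned in some settings. In WT stimulation *Oas3* was 0.009998 with median-of-ratios scaling, 0.26 with library weights and -0.28 to 0.28 with each library left out. In NS genotype the replicate block by number, which joins cultures of different genotype that share only a number, gave -0.12 for *Ifit1*, -0.078 for *Oas1a*, -0.13 for *Oas2*, -0.015 for *Oasl1*, -0.094 for *Oasl2* and -0.090 for *Mx2*. With each library left out *Oas2* ranged from -0.039 to 0.10, *Oas3* from -0.28 to 0.16 and *Mx1* from -0.040 to 0.036. The difference of the stimulation changes turned with voom for *Ifit1* (-0.39), *Oasl1* (-0.64) and *Mx2* (-0.048), and for *Mx2* with a pseudocount of 0.1 (-0.011) and without culture 5 in both conditions (-0.013). With each library left out it ranged from -0.0048 to 0.32 for *Ifit2*, from -0.29 to 0.65 for *Ifit3* and from -0.20 to 0.29 for *Mx2*. The cause was not tested. The block within genotype left 5 calls in each stimulation comparison, and changed no call other than that of *Ifit2* in WT cells. *Oas1a*, *Oas2*, *Oas3*, *Oasl1* and *Mx1* rest on 0 to 4 read pairs per NS library, so the depth does not resolve their levels in naïve cells.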
